A study of Mus musculus with 6 samples.

Results

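The genes examined were 42 genes of DNA replication and mitosis, out of 20145 genes named on the array. They were chosen by name from textbook roles, with earlier results of these data known. The 42 genes were 18 replication genes, 3 G1 and S phase cyclin genes and 21 mitotic genes. They were measured in the tibial growth plate of male C57BL/6J mice aged 4 weeks and left untreated, with 2 arrays each for mice named ATF6aKO, mice named ATF6bKO and wild-type (WT) mice. ATF6 alpha and ATF6 beta, encoded by Atf6 and Atf6b, are membrane proteins of the endoplasmic reticulum that are cut to release a transcription factor when unfolded protein accumulates. The title of the study asks what ATF6 does in long bone growth. The labels give the knockouts by these names alone, so the deleted part of each gene and the cells in which it was deleted were not known here. Nor do they tell whether 2 arrays of the same genotype stand for 2 animals, so every p-value below reflects array-to-array spread, which could be technical.

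The growth plate is the cartilage at the end of a long bone, in which resting cells feed columns of dividing chondrocytes that then stop dividing and enlarge. Before a cell copies its DNA, Cdc6 and Cdt1 load rings of MCM2-7 onto origins, and Cdc45 and the GINS complex turn each ring into the working helicase. D cyclins and E cyclins carry cells into S phase, and A and B cyclins with Cdk1 carry them on into mitosis. There checkpoint and spindle proteins sort the chromosomes. In dividing cells many S phase genes are driven by E2F factors, and many mitotic genes by MuvB complexes with B-Myb and FOXM1 acting at CHR elements, often near CCAAT boxes bound by NF-Y.

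These elements could be seen in the promoters. The RefSeq promoter table (build GRCm38.p6) held 31 of the 42 genes, in windows from 250 bases before to 50 bases after each start. It had no entry for Mcm4, Gins1, Gins2, Ccnd1, Ccne2, Ccna2, Cdc25c, Aurkb, Kif20a, Tpx2 and Foxm1. Both strands were searched for the CHR word TTTGAA or its variant TTCGAA, for CCAAT, and for 4 E2F words, namely TTCCCGC with its variant TTCGCGC, and TTGCCGC with its variant TTGGCGC, which can overlap each other. A CHR word lay in 11 of 15 mitotic promoters (73.3%) and 3 of 15 replication promoters (20.0%), against 21.7% of all 27025 genes of the table. An E2F word lay in 3 of 15 mitotic promoters (20.0%) and 10 of 15 replication promoters (66.7%), against 10.9% of all genes. CCAAT lay in 13 mitotic promoters (86.7%) and 12 replication promoters (80.0%), against 41.1% of all genes. A CHR word and CCAAT occurred together in 11 mitotic promoters (73.3%), against 8.61% of all genes. Counted over all 32851 promoters instead of genes, the background shares were 19.2%, 9.57%, 37.4% and 7.52% for CHR, E2F, CCAAT and the pair. Such matches describe letters and not binding.

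The 250 bases before the start are shown for Mcm2, Mcm10, Birc5 and Mki67, whose values carry the comparisons below. Mcm6 and Ccnb2 were added after the matches were seen, as examples of E2F words and of a CHR word in the same promoter as CCAAT. Each sequence is 5′ to 3′ on the strand of its gene, with the searched words in capitals, ATTGG being CCAAT on the other strand and TTGGCGCGAA an overlap of TTGGCGC with TTCGCGC on the other strand. The sequences are those of chr6:88898781-88899030 (minus strand), chr2:5012792-5013041 (minus strand), chr1:128359706-128359955 (minus strand), chr11:117848987-117849236 (plus strand), chr7:135716380-135716629 (minus strand) and chr9:70421555-70421804 (minus strand), in this order.
Mcm2: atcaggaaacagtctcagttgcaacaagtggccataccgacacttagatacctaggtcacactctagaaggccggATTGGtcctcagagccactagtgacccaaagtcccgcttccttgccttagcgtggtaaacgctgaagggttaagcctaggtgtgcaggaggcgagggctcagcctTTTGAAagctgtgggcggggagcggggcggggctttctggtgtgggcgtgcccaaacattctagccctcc
Mcm10: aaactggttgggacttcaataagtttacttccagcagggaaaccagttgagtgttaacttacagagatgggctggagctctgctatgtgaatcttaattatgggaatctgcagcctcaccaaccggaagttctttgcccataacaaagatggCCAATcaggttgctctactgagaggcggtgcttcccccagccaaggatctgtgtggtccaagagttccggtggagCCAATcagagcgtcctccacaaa
Mcm6: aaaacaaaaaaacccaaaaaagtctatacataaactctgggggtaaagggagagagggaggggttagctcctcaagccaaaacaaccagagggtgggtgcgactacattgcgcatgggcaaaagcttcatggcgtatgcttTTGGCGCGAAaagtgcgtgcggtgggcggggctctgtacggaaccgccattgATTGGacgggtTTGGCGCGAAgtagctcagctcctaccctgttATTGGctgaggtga
Birc5: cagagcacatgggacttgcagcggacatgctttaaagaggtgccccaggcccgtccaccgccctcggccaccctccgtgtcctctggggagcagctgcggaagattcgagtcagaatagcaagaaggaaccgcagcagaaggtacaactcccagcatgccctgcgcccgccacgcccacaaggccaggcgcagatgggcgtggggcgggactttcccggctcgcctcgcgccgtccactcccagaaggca
Mki67: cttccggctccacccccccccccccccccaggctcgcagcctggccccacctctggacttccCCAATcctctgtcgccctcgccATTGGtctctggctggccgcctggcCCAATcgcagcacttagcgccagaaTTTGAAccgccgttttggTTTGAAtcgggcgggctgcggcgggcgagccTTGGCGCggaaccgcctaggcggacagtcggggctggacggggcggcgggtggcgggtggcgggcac
Ccnb2: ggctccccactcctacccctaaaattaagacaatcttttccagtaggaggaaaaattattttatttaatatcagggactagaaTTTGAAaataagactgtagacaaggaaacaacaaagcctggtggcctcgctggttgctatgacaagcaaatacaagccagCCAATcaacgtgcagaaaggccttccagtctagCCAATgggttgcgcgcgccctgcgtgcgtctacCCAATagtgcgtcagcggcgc

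Within these bases Mcm2 had 1 CHR word and 1 CCAAT, and Mcm10 had 2 CCAAT words without a CHR or E2F word. Mcm6 had overlapping E2F words at 2 places and CCAAT. Mki67 had all 3 kinds of word, Ccnb2 a CHR word and 3 CCAAT words, and Birc5 none of the words searched.

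The values below are log2 spot intensities after background correction and quantile normalisation, read from the red channel on the knockout arrays and from the only channel on the WT arrays. The 4 knockout arrays were on 1 slide and the WT arrays on another, scanned through a differently named channel. Slide and channel therefore cannot be told apart from genotype in any comparison with WT, while ATF6aKO and ATF6bKO were compared within 1 slide. The median spot intensity was 146 to 183 on the knockout arrays over a background of 37. It was 259.5 on WT replicate 1 and 210 on WT replicate 2, over a background of 17. Of the spots on each array, 86.9% to 96.7% were well above background. Over all named probes the knockout arrays correlated with each other at 0.9704 to 0.9881 and with the WT arrays at 0.8508 to 0.9057. The targeted genes could not check the labels without the deleted part: Atf6 differed between ATF6aKO and WT by -0.15 ± 0.16 (SE, adjusted p = 0.498 in limma) and Atf6b between ATF6bKO and WT by -0.54 ± 0.21 (adjusted p = 0.0824).

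Of the 42 genes, 39 had a probe that stood well above background on both arrays of some genotype. The others were Pola1, which encodes the catalytic subunit of DNA polymerase alpha, Ccne2, an E cyclin gene, and Aurkb, the Aurora kinase of the centromere. Pola1 was well above background on 1 array, with raw intensities of 64 and 53.5 in ATF6aKO, 37 and 47 in ATF6bKO, against 37 and 43 in WT. No array had the Ccne2 or the Aurkb probe well above background. A gene is called here when limma's Benjamini-Hochberg adjusted p over 19122 genes was under 0.05. Against WT, 20 of the 39 genes were called in ATF6aKO (51.3%; 15 higher and 5 lower) where 42.7% of all genes were called (20.3% higher and 22.3% lower). In ATF6bKO 20 were also called (51.3%; 14 higher and 6 lower) where 37.6% of all genes were called (17.3% higher and 20.3% lower). The arrays of knockout and WT did not overlap for 32 of the 39 in ATF6aKO (82.1%, against 73.2% of all genes) and for 27 in ATF6bKO (69.2%, against 72.8%). A call against WT is thus common on these arrays, and each count below is to be read against that share. Both comparisons use the same WT arrays, so their values stand side by side below and are not 2 independent results. In these bulk samples fewer cells of a type and less RNA per cell cannot be told apart.

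**Figure D1:**
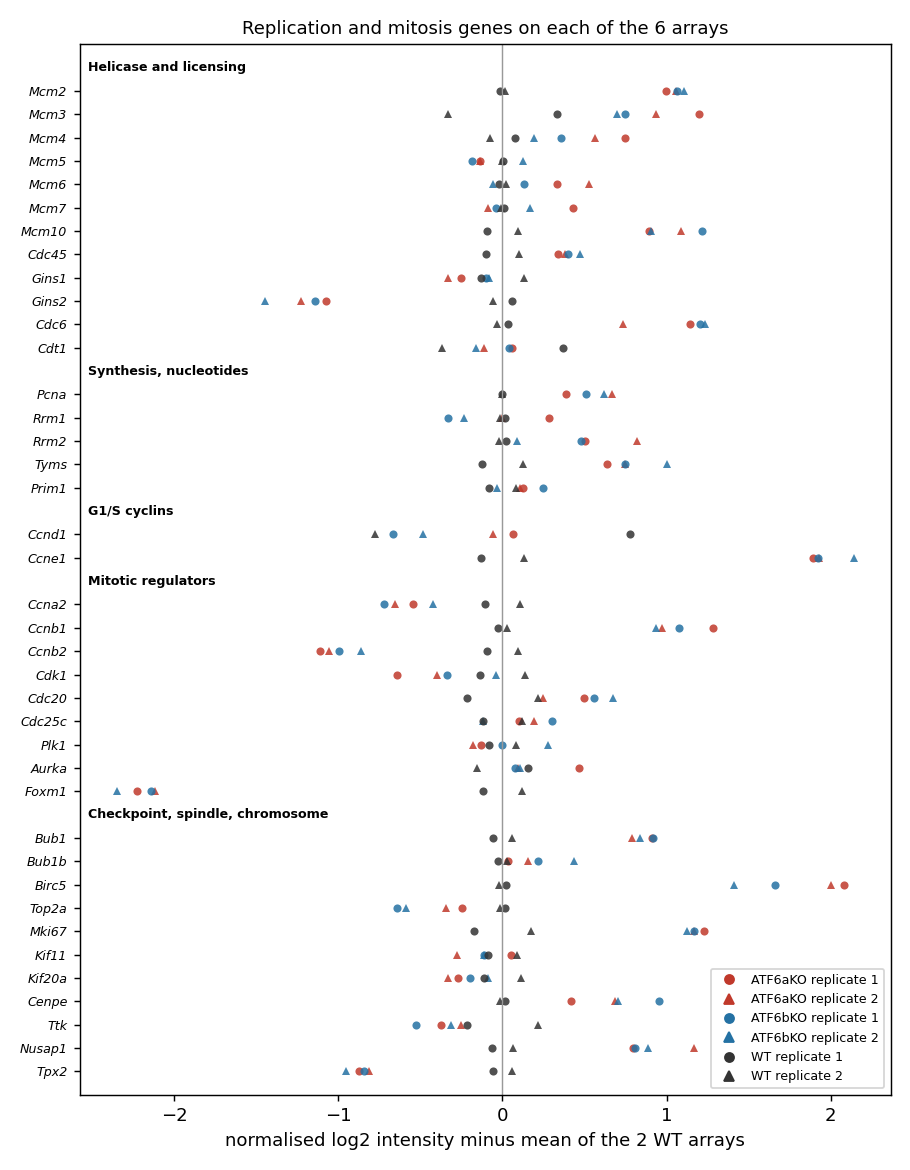
Normalised log2 intensity of each of the 39 measured genes on each of the 6 arrays, minus the mean of the 2 WT arrays, with genes in rows by role, colours for genotype and circles and triangles for replicates 1 and 2. Ccne1 and Birc5 lie far to the right of the WT points on all 4 knockout arrays and Foxm1 far to the left, while genes of 1 role lie on both sides.

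Among the 12 genes of the replicative helicase and its loading, 5 were higher and 1 lower in ATF6aKO than in WT, with a median difference of 0.39 over the 12. In ATF6bKO 4 were higher and 1 lower, with a median of 0.17. The median over all genes was -0.03 in ATF6aKO and -0.05 in ATF6bKO. Mcm2, a subunit of the MCM ring, measured 7.51 and 7.57 in ATF6aKO, 7.58 and 7.62 in ATF6bKO, against 6.5 and 6.53 in WT. All 4 knockout arrays lay above both WT arrays, by 1.02 ± 0.15 (SE) or 2.03-fold in ATF6aKO (limma adjusted p = 0.00217) and 1.08 ± 0.15 or 2.12-fold in ATF6bKO (adjusted p = 0.00218). Mcm10, which helps start the helicase, measured 7.67 and 7.86 in ATF6aKO, 7.99 and 7.68 in ATF6bKO, against 6.68 and 6.87 in WT. It was 1.98-fold higher in ATF6aKO (0.99 ± 0.18, limma adjusted p = 0.00496) and 2.09-fold higher in ATF6bKO (1.06 ± 0.18, adjusted p = 0.00444), again with no overlap of knockout and WT arrays. Cdc6, the loader of the ring, measured 8.56 and 8.15 in ATF6aKO, 8.62 and 8.65 in ATF6bKO, against 7.45 and 7.38 in WT, and did not overlap with WT either. The fold was 1.92 in ATF6aKO (limma adjusted p = 0.00623) and 2.33 in ATF6bKO (adjusted p = 0.00283).

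Gins2 encodes a GINS subunit and went the other way. It measured 7.43 and 7.28 in ATF6aKO, 7.36 and 7.06 in ATF6bKO, against 8.56 and 8.45 in WT. Every knockout array lay below both WT arrays, and Gins2 was 2.22-fold lower in ATF6aKO (-1.15 ± 0.18, limma adjusted p = 0.00245) and 2.45-fold lower in ATF6bKO (-1.29 ± 0.18, adjusted p = 0.00202). The partner subunit gene Gins1 was not called, with differences of -0.29 (adjusted p = 0.198) and -0.09, and was well above background on only 1 array of each knockout.

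The 6 genes of the MCM ring did not move together. Mcm3 measured 8.10 and 7.84 in ATF6aKO, 7.65 and 7.60 in ATF6bKO, against 7.24 and 6.57 in WT, and was called 2.08-fold higher in ATF6aKO (limma adjusted p = 0.0105) and 1.64-fold higher in ATF6bKO (adjusted p = 0.0481). Mcm4 measured 9.91 and 9.73 in ATF6aKO, 9.52 and 9.36 in ATF6bKO, against 9.24 and 9.09 in WT, and was called in ATF6aKO alone (1.58-fold, adjusted p = 0.0163), with 0.28 in ATF6bKO (adjusted p = 0.226). Mcm5, Mcm6 and Mcm7 were not called, with differences of -0.13, 0.43 and 0.17 in ATF6aKO and -0.02, 0.03 and 0.07 in ATF6bKO. Cdc45, which joins the ring to GINS, had 0.36 (adjusted p = 0.105) and 0.44 (adjusted p = 0.065), and Cdt1, the partner of Cdc6 in loading, -0.02 and -0.05. The call of Mcm3 in ATF6aKO was lost without ATF6aKO replicate 1 (0.93, adjusted p = 0.0591). In ATF6bKO it was lost without any array but WT replicate 1, with values of 0.38 without WT replicate 2, 0.69 and 0.74 without ATF6bKO replicate 1 or 2, and 0.72 without either ATF6aKO array, and that of Mcm4 was lost without ATF6aKO replicate 1 (0.57) or WT replicate 2 (0.58).

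Of the 5 measured genes of DNA synthesis and nucleotide supply, 3 were higher and none lower in ATF6aKO, with a median difference of 0.53, and 2 were higher and none lower in ATF6bKO, with a median of 0.29. Tyms, thymidylate synthase, measured 8.89 and 9.0 in ATF6aKO, 9.0 and 9.26 in ATF6bKO, against 8.13 and 8.38 in WT. The groups did not overlap, and Tyms was 1.61-fold higher in ATF6aKO (0.69 ± 0.18, limma adjusted p = 0.018) and 1.84-fold higher in ATF6bKO (0.88 ± 0.18, adjusted p = 0.00824). Pcna, the sliding clamp of the DNA polymerases, measured 7.45 and 7.73 in ATF6aKO, 7.57 and 7.68 in ATF6bKO, and 7.06 on both WT arrays. It was 1.44-fold higher in ATF6aKO (0.53 ± 0.17, limma adjusted p = 0.0378) and 1.48-fold higher in ATF6bKO (0.56 ± 0.17, adjusted p = 0.0337). Rrm2, the small subunit of ribonucleotide reductase, measured 7.33 and 7.65 in ATF6aKO, 7.31 and 6.92 in ATF6bKO, against 6.85 and 6.81 in WT. It was called in ATF6aKO (1.58-fold, adjusted p = 0.0316) and not in ATF6bKO (0.29, adjusted p = 0.287). The large subunit gene Rrm1 was not called, with 0.14 and -0.29, and neither was the primase gene Prim1, with 0.11 and 0.10.

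The calls in this group rested on few arrays. That of Tyms in ATF6aKO was lost without ATF6aKO replicate 2 (0.63) or WT replicate 1 (0.56), and in ATF6bKO without ATF6bKO replicate 2 (0.75). That of Pcna in ATF6aKO held only with ATF6aKO replicate 1 left out, with 0.39 without ATF6aKO replicate 2 and 0.53 without any other array. In ATF6bKO it was lost without ATF6bKO replicate 1 (0.62) or 2 (0.50) and without either WT array (0.56). That of Rrm2 was lost without ATF6aKO replicate 2 (0.50), WT replicate 1 (0.68) or WT replicate 2 (0.63).

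Of the G1 and S cyclins, Ccne1 starts S phase with Cdk2. On its brightest probe it showed the largest rise against WT among the 39 genes in ATF6bKO. It measured 8.89 and 8.93 in ATF6aKO, 8.92 and 9.14 in ATF6bKO, against 6.87 and 7.13 in WT. All knockout arrays lay far above WT, by 3.75-fold in ATF6aKO (1.91 ± 0.17, limma adjusted p = 0.000622) and 4.08-fold in ATF6bKO (2.03 ± 0.17, adjusted p = 0.000677). Ccnd1, the D cyclin that carries growth signals into the cycle, measured 9.13 and 9.01 in ATF6aKO, 8.40 and 8.58 in ATF6bKO, against 9.84 and 8.29 in WT. The WT arrays lay on either side of all knockout arrays, and neither difference was called: 0.00 ± 0.43 in ATF6aKO (adjusted p = 0.999) and -0.58 ± 0.43 in ATF6bKO (adjusted p = 0.321). The ATF6aKO value moved to 0.77 without WT replicate 1 and to -0.78 without WT replicate 2, and that of ATF6bKO to 0.20 and -1.36, so that a call for Ccnd1 rested on which WT array was used.

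Among the 9 measured mitotic cyclins, kinases and regulators, 1 was higher and 3 lower in ATF6aKO than in WT, with a median difference of -0.16. In ATF6bKO 2 were higher and 3 lower, with a median of 0.09. Foxm1, the transcription factor of mitotic genes, had the largest fall of the 39 genes in both knockouts. It measured 7.45 and 7.56 in ATF6aKO, 7.54 and 7.33 in ATF6bKO, against 9.56 and 9.80 in WT. No array of a knockout came near WT, and Foxm1 was 4.51-fold lower in ATF6aKO (-2.17 ± 0.17, limma adjusted p = 0.000496) and 4.74-fold lower in ATF6bKO (-2.24 ± 0.17, adjusted p = 0.000597).

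The B cyclin genes Ccnb1 and Ccnb2, whose proteins both activate Cdk1 at entry into mitosis, moved in opposite directions. Ccnb1 measured 11.83 and 11.52 in ATF6aKO, 11.62 and 11.48 in ATF6bKO, against 10.52 and 10.57 in WT. It was 2.19-fold higher in ATF6aKO (1.13 ± 0.17, limma adjusted p = 0.0025) and 2.01-fold higher in ATF6bKO (1.0 ± 0.17, adjusted p = 0.00449). Ccnb2 measured 7.27 and 7.33 in ATF6aKO, 7.39 and 7.52 in ATF6bKO, against 8.29 and 8.48 in WT. It was 2.13-fold lower in ATF6aKO (-1.09 ± 0.16, limma adjusted p = 0.00223) and 1.91-fold lower in ATF6bKO (-0.93 ± 0.16, adjusted p = 0.00457). For both genes the knockout and WT arrays did not overlap.

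Ccna2, the cyclin of S phase and G2, measured 6.39 and 6.28 in ATF6aKO, 6.21 and 6.51 in ATF6bKO, against 6.83 and 7.04 in WT, and was called lower in both knockouts. It was 1.51-fold lower in ATF6aKO (-0.60 ± 0.18, limma adjusted p = 0.0313). It was not well above background in ATF6bKO, where it was at least 1.49-fold lower with quantile normalisation (adjusted p = 0.0396), a bound that here equals the measured fold and sets the WT mean against the dimmest signal measured well above background on each ATF6bKO array, or against its own signal where that was higher. Cdc20, the activator of the anaphase-promoting complex, was called in ATF6bKO (1.53-fold higher, adjusted p = 0.045) and not in ATF6aKO (0.37, adjusted p = 0.17). Cdk1, the kinase that B cyclins activate, had -0.52 in ATF6aKO (adjusted p = 0.0629) and -0.19 in ATF6bKO. The phosphatase gene Cdc25c, which activates Cdk1, and the kinase genes Plk1 and Aurka, which act on spindle poles, were not called, with differences between -0.16 and 0.28 in both knockouts. Ccna2 in ATF6aKO was no longer called with scaling to the 75th percentile (-0.33) or without ATF6aKO replicate 1 (-0.65), ATF6aKO replicate 2 (-0.54) or WT replicate 2 (-0.49). In ATF6bKO its value was -0.16 (adjusted p = 0.57 in limma) with scaling to the 75th percentile, and among the arrays left out the call held only without WT replicate 1, with values from -0.73 to -0.42 without another array, and Cdc20 in ATF6bKO only without WT replicate 2, with values from 0.40 to 0.67.

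Among the 11 genes of the checkpoint, the spindle and mitotic chromosomes, 5 were higher and 1 lower in ATF6aKO, with a median difference of 0.09. In ATF6bKO 5 were higher and 2 lower, with a median of 0.33. Birc5, survivin, which places Aurora B at centromeres, measured 10.09 and 10.01 in ATF6aKO, 9.67 and 9.42 in ATF6bKO, against 8.03 and 7.99 in WT. The 3 genotypes did not overlap, and Birc5 was 4.10-fold higher than WT in ATF6aKO (2.04 ± 0.16, limma adjusted p = 0.000498) and 2.89-fold higher in ATF6bKO (1.53 ± 0.16, adjusted p = 0.00103). Mki67, the coat protein of mitotic chromosomes and a common marker of cycling cells, measured 9.25 and 9.19 in ATF6aKO, 9.19 and 9.15 in ATF6bKO, against 7.85 and 8.20 in WT. It was 2.28-fold higher in ATF6aKO (1.19 ± 0.18, limma adjusted p = 0.00218) and 2.21-fold higher in ATF6bKO (1.14 ± 0.18, adjusted p = 0.00297), with the knockout arrays close to each other and apart from WT. Bub1, a kinase of the spindle checkpoint, measured 7.49 and 7.37 in ATF6aKO, 7.50 and 7.42 in ATF6bKO, against 6.52 and 6.64 in WT. It was 1.81-fold higher in ATF6aKO (limma adjusted p = 0.00482) and 1.85-fold higher in ATF6bKO (adjusted p = 0.00495).

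Nusap1, which binds spindle microtubules, and Cenpe, a motor at kinetochores, were also higher. Nusap1 was 1.97-fold higher in ATF6aKO (limma adjusted p = 0.00497) and 1.79-fold higher in ATF6bKO (adjusted p = 0.0101), and Cenpe 1.47-fold (adjusted p = 0.0395) and 1.78-fold higher (adjusted p = 0.00991). Tpx2, which activates Aurora A on the spindle, measured 6.95 and 7.01 in ATF6aKO, 6.98 and 6.87 in ATF6bKO, against 7.77 and 7.88 in WT. Every knockout array lay below WT, and Tpx2 was 1.79-fold lower in ATF6aKO (-0.84 ± 0.16, limma adjusted p = 0.00493) and 1.86-fold lower in ATF6bKO (-0.90 ± 0.16, adjusted p = 0.00456). Top2a, the topoisomerase that untangles chromosomes, measured 6.58 and 6.48 in ATF6aKO, 6.18 and 6.24 in ATF6bKO, against 6.84 and 6.81 in WT. It was not well above background in ATF6bKO, where it was at least 1.53-fold lower than WT with quantile normalisation (adjusted p = 0.0171), again equal to the measured fold, and was not called in ATF6aKO (-0.30, adjusted p = 0.153).

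The checkpoint genes Bub1b and Ttk and the motor genes Kif11 and Kif20a were not called in either knockout. Their differences were 0.09 and 0.33 for Bub1b, -0.32 and -0.42 for Ttk, -0.12 and -0.11 for Kif11, and -0.31 and -0.15 for Kif20a, in ATF6aKO and ATF6bKO. Cenpe in ATF6aKO was called with ATF6aKO replicate 1 left out and with no other array left out, with values from 0.41 without ATF6aKO replicate 2 to 0.57 without WT replicate 1. In ATF6bKO it was not called without ATF6bKO replicate 1 (0.71). Nusap1 in ATF6bKO was not called without ATF6bKO replicate 1 (0.88) or 2 (0.80), nor Top2a without either (-0.59 and -0.65) or with scaling to the 75th percentile (-0.15).

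**Figure D2:**
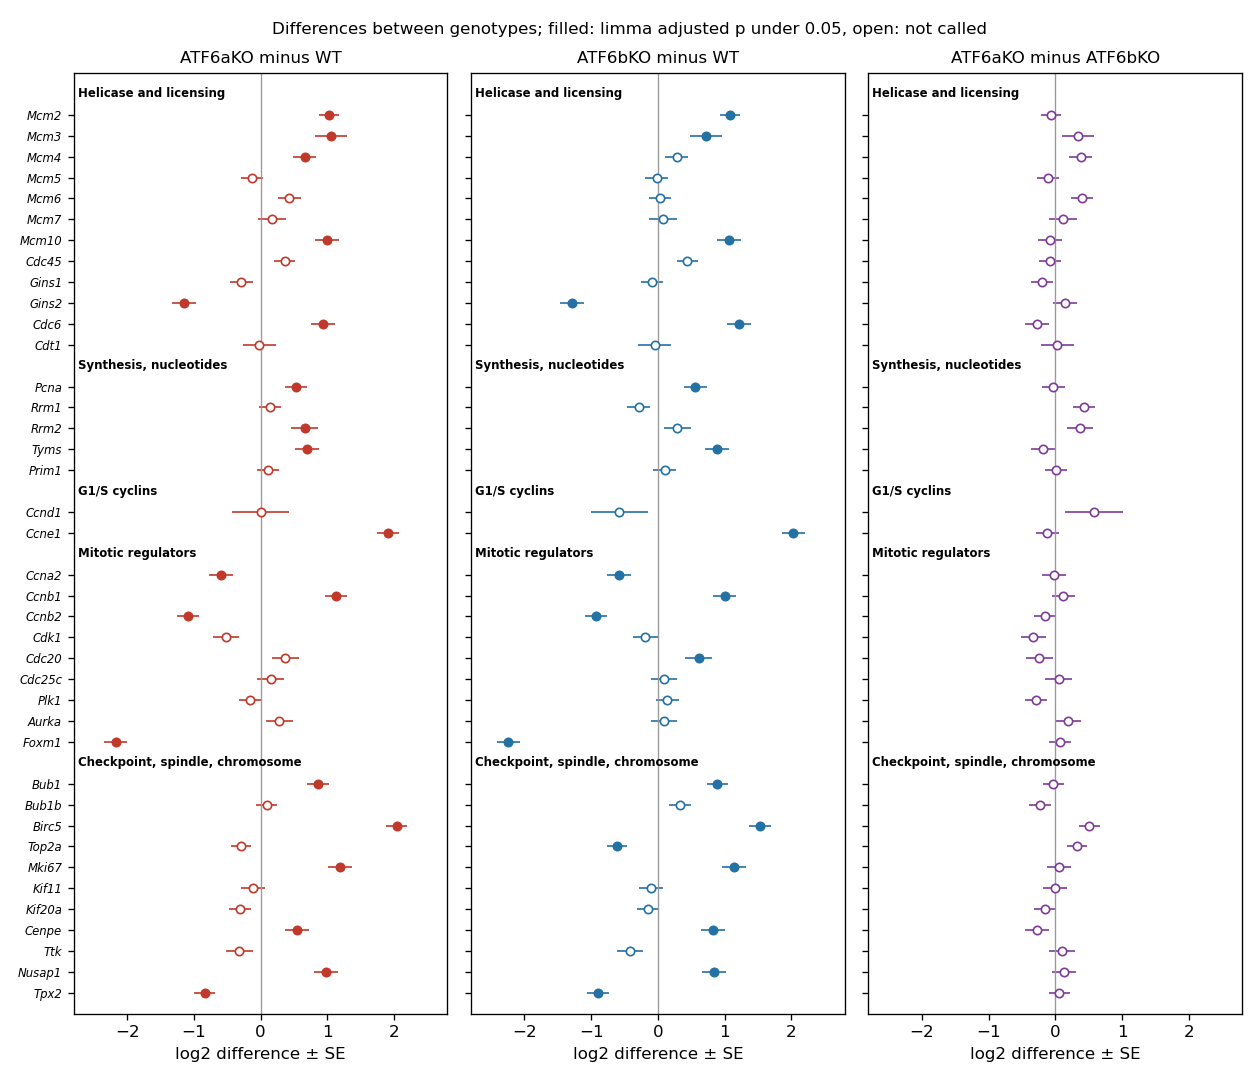
Log2 difference ± SE of each of the 39 measured genes, by role, for ATF6aKO minus WT, ATF6bKO minus WT and ATF6aKO minus ATF6bKO, with filled points for limma adjusted p under 0.05 and open points for genes not called. Foxm1 at -2.17 and -2.24 lies farthest left, Birc5 at 2.04 and Ccne1 at 2.03 lie farthest right, Ccnb1 and Ccnb2 lie on opposite sides of 0 against WT, and every point is open between the knockouts.

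Among the 39 measured genes, those of replication had a higher median difference from WT than those of mitosis in both knockouts. This is a description and was not tested. Of 17 measured replication genes, 8 were higher and 1 lower in ATF6aKO (52.9% called, against 42.7% of all genes), with a median difference of 0.43. In ATF6bKO 6 were higher and 1 lower (41.2%, against 37.6%), with a median of 0.28. Of 20 measured mitotic genes, 6 were higher and 4 lower in ATF6aKO (50% called, against 42.7% of all genes), with a median of -0.01. In ATF6bKO 7 were higher and 5 lower (60%, against 37.6%), with a median of 0.09. On single arrays, the median deviation of the replication genes from their mean over the arrays was 0.17 and 0.11 in ATF6aKO, 0.14 and 0.09 in ATF6bKO, against -0.24 and -0.34 in WT. That of the mitotic genes was -0.01 and -0.04, -0.01 and 0.13, and -0.04 and 0.06. The replication value was thus below 0 on the WT arrays alone, and the mitotic values of the 3 genotypes overlapped. The ATF6bKO median of the replication genes moved to 0.17 without ATF6bKO replicate 1. Among the other genes of these pathways, given below, the replication median was not the higher one. In ATF6aKO and ATF6bKO the medians there were 0.01 and -0.01 for 44 replication genes, and 0.08 and 0.04 for 58 mitotic genes.

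Scaling to the 75th percentile moved the median of all genes to 0.11 in ATF6aKO and 0.18 in ATF6bKO, with 57.5% and 63.9% of all calls higher, against 47.6% and 46.1% with quantile normalisation. Relative to the median of all genes, the replication genes lay at 0.45 and 0.33 with quantile normalisation and at 0.37 and 0.22 with that scaling, in ATF6aKO and ATF6bKO. The mitotic genes lay at 0.01 and 0.14, and at 0.03 and 0.04.

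**Figure D3:**
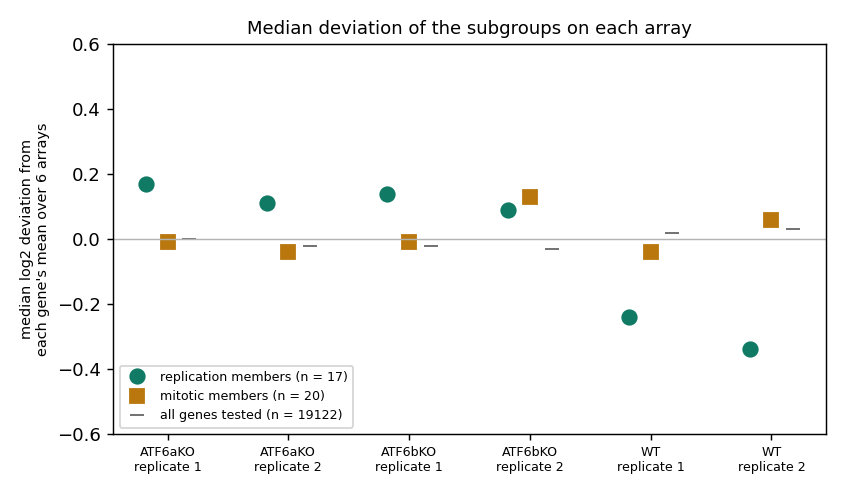
Median deviation, in log2 units, of the 17 replication genes (circles), the 20 mitotic genes (squares) and all 19122 genes (dashes) from each gene's mean over the 6 arrays, by array. The replication points of the WT arrays, -0.24 and -0.34, lie below the 4 knockout points, and the mitotic points lie between -0.04 and 0.13.

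For 8 genes more than 1 probe was well above background in some genotype, and there the size of a difference from WT depended on the probe. The values above come from the brightest probe of each gene. The second Foxm1 probe gave -0.23 in ATF6aKO and -0.31 in ATF6bKO, against -2.17 and -2.24, and was not called. The second Ccne1 probe gave 0.56 (limma adjusted p = 0.0759) and 0.40 (adjusted p = 0.189), against 1.91 and 2.03. The second Mki67 probe gave 0.11 and 0.21 and the second Cdc6 probe 0.21 and 0.09, neither of them called. The second Tpx2 probe was not well above background in either knockout and gives no second reading. Ccnb1 had a second probe at 0.48 and 0.27 and a further one at 0.38 and 0.28, also not called. The brightest Cdk1 probe, at -0.52 and -0.19, stood against 0.36 and 0.00 on one probe, and in ATF6aKO against 0.29 on another that was too dim in ATF6bKO.

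Birc5 had 3 such probes, with 2 accessions between them. The brightest probe and another, both designed on NM_001012273, were called higher in both knockouts, the second at 0.72 (limma adjusted p = 0.0156) in ATF6aKO and 0.78 (adjusted p = 0.0136) in ATF6bKO. The probe designed on NM_009689 measured 8.17 and 8.19 in ATF6aKO, 7.99 and 7.97 in ATF6bKO, against 8.59 and 8.56 in WT. Its knockout arrays lay below WT, by -0.39 in ATF6aKO (adjusted p = 0.0701) and by -0.59 in ATF6bKO, where it was called lower (adjusted p = 0.0196).

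Counting the probes well above background on at least 1 array of both genotypes compared, 8 other probes belonged to called genes. In ATF6aKO 1 of them was called in the same direction and 7 were not called. In ATF6bKO 1 was called in the same direction, 1 in the opposite direction and 6 were not called. The gap between the brightest and another such probe had a median of 0.98 (range 0.65 to 2.43) in ATF6aKO against WT and 0.93 (0.19 to 2.12) in ATF6bKO against WT. With the dimmer probes included the medians were 0.88 and 0.75. Between the knockouts, within the slide and with the dimmer probes, the median was 0.28 (0.01 to 0.69). Over all 4859 genes with more than 1 probe the median gaps were 0.64, 0.59 and 0.19. The brightest probe was called against WT in 2896 of these pairs in ATF6aKO and 2586 in ATF6bKO. In 30.2% and 26.5% of those pairs the other probe was called in the same direction. It was called in the opposite direction in 358 and 284 of them. With the mean over probes, the differences in ATF6aKO and ATF6bKO were -1.20 and -1.28 for Foxm1, 1.23 and 1.21 for Ccne1, 0.79 and 0.57 for Birc5, 0.65 and 0.68 for Mki67, 0.66 and 0.52 for Ccnb1, and 0.58 and 0.66 for Cdc6, and each was still called. Cdk1, at 0.04 and -0.08, was not called. The other 31 measured genes, among them Mcm2, Gins2 and Ccnb2, had a single such probe and no second reading.

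**Figure D4:**
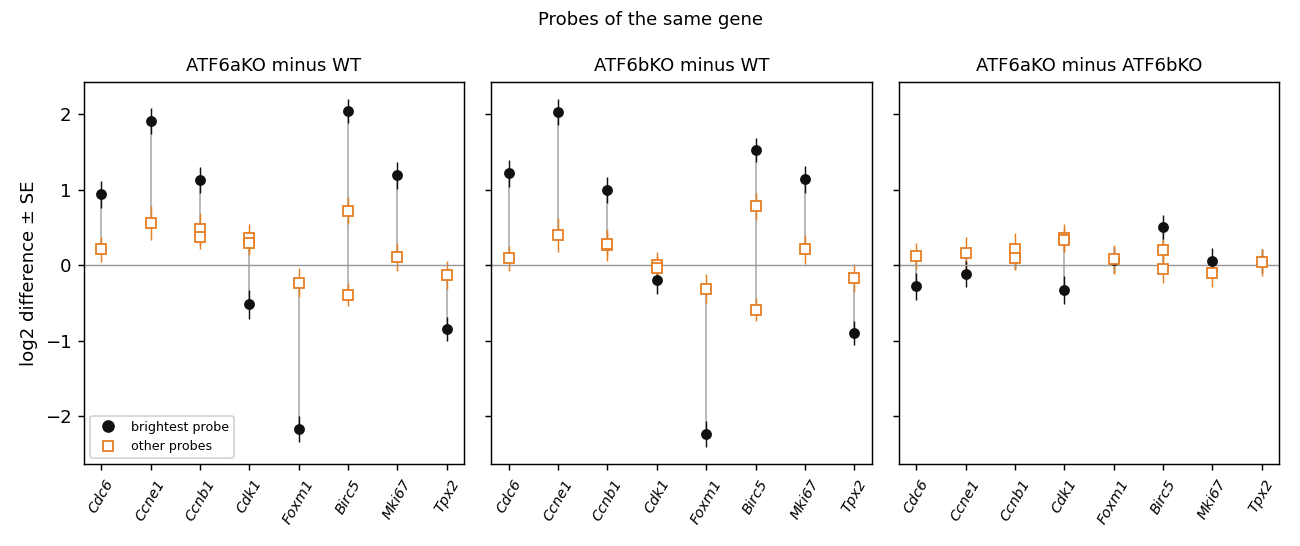
Log2 difference ± SE for every probe well above background in some genotype of the 8 genes with more than 1, for ATF6aKO minus WT, ATF6bKO minus WT and ATF6aKO minus ATF6bKO, with black circles for the brightest probe, open squares for the others and a line joining the probes of a gene. In ATF6aKO the probes of Foxm1 spread from -2.17 to -0.23 and those of Birc5 from -0.39 to 2.04, and the median gap over all probes shown is smaller between the knockouts (0.28) than against WT (0.88 and 0.75). The open squares of Tpx2 in both knockouts and of a Cdk1 probe in ATF6bKO are not well above background there.

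Between ATF6aKO and ATF6bKO, which share a slide, none of the 39 genes was called, as 0% of all genes were called by limma. An unadjusted p under 0.05 was reached by 3 of the 39, against 6.11% of all genes, and all 3 were higher in ATF6aKO, as were 974 of the 1169 such genes overall. The arrays did not overlap for 20 of the 39 (51.3%), against 36.9% of all genes. Birc5 was 1.42-fold higher in ATF6aKO (0.51, 95% interval 0.12 to 0.89, limma unadjusted p = 0.0162, adjusted p = 0.67). Its other probes gave 0.20 and -0.05. Rrm1 measured 7.01 and 6.72 in ATF6aKO, 6.39 and 6.49 in ATF6bKO, against 6.74 and 6.71 in WT, and differed between the knockouts by 0.43 (0.03 to 0.83, adjusted p = 0.778 in limma). Its WT values overlapped those of ATF6aKO and lay above those of ATF6bKO. Mcm6 measured 8.29 and 8.49 in ATF6aKO, 8.09 and 7.90 in ATF6bKO, against 7.94 and 7.98 in WT, and differed by 0.40 (0.01 to 0.79, adjusted p = 0.794 in limma). Mcm4 was next, with 0.38 ± 0.17 (adjusted p = 0.818), and its knockout arrays did not overlap.

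The differences between the knockouts ran from -0.33 for Cdk1 to 0.58 for Ccnd1, with a median of 0.01, and the median over all genes was 0.00. Of the 3 genes with the largest differences from WT in either knockout, Foxm1 differed between the knockouts by 0.07, Ccne1 by -0.12 and Birc5 by the 0.51 given above. Mki67 differed by 0.05 and Mcm2 by -0.06, the last with an interval of -0.41 to 0.29. For Ccnd1 the interval was -0.42 to 1.58. Intervals of this width do not show that the knockouts are alike.

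The other genes of these pathways were taken from 3 lists of 139 genes, of which 132 were measured. In ATF6aKO 33 were higher and 24 lower than WT (43.2%, against 42.7% of all genes), and in ATF6bKO 28 were higher and 27 lower (41.7%, against 37.6%). With scaling to the 75th percentile these counts were 43 and 19 in ATF6aKO and 45 and 15 in ATF6bKO, so the balance of higher and lower calls in these lists depended on the scaling. Between the knockouts none was called. Of 44 other replication genes, 7 were higher and 10 lower in ATF6aKO and 6 higher and 11 lower in ATF6bKO. Slbp, which binds histone mRNA, rose by 1.66 ± 0.20 (3.16-fold, limma adjusted p = 0.00111) in ATF6aKO and 1.71 (3.28-fold) in ATF6bKO. Pold2, a subunit of DNA polymerase delta, was 2.62-fold and 2.63-fold lower. Lig1, the ligase of Okazaki fragments, was 3.03-fold lower in ATF6aKO and 2.45-fold lower in ATF6bKO, and Fen1, the flap nuclease, 1.81-fold and 1.68-fold higher. The chromatin remodeller gene Hells was 2.27-fold and 2.34-fold higher, and Rfc5, of the clamp loader, 2.02-fold and 2.36-fold lower.

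Of 58 other mitotic genes, 15 were higher and 9 lower in ATF6aKO and 12 higher and 9 lower in ATF6bKO. Cks1b, a small partner of cyclin-dependent kinases, was 5.22-fold higher in ATF6aKO (2.39 ± 0.18, limma adjusted p = 0.000474) and 5.15-fold higher in ATF6bKO. Kif23, a motor of the midbody, was 2.23-fold and 1.89-fold higher, and Cit, citron kinase of cytokinesis, 2.76-fold and 2.57-fold lower. Fzr1, an activator of the anaphase-promoting complex, was 2.08-fold lower in ATF6aKO and 1.74-fold lower in ATF6bKO, and Cenpa, the centromeric histone, 1.90-fold and 2.06-fold lower.

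Of 30 genes of G1 control, 11 were higher and 5 lower in ATF6aKO and 10 higher and 7 lower in ATF6bKO. Fbxw7, whose product marks cyclin E for degradation, was 9.06-fold higher in ATF6aKO (3.18 ± 0.16, limma adjusted p = 0.000463) and 9.51-fold higher in ATF6bKO (3.25 ± 0.16, adjusted p = 0.000534). Rb1, the retinoblastoma gene that restrains E2F, was 2.66-fold and 2.67-fold lower, and E2f7, a repressive E2F, 3.24-fold and 3.17-fold lower. E2f6, also repressive, was 4.49-fold higher in ATF6aKO and 3.26-fold higher in ATF6bKO, and Tfdp1, the partner of E2F factors, 4.49-fold and 3.94-fold higher. With 1 array of a knockout left out, fewer of the pathway genes and fewer of all genes were called in that knockout against WT.

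Markers of the tissue and of other cells moved with the same comparisons. Col2a1, the main cartilage collagen, measured 15.06 and 15.36 in ATF6aKO, 14.51 and 13.25 in ATF6bKO, against 10.88 and 11.15 in WT, so that the WT arrays were the lowest. Of 14 cartilage markers, 11 were higher and 1 lower in ATF6aKO, with a median difference of 2.65, and 7 higher and 2 lower in ATF6bKO, with a median of 1.08. Their mean level was 11.31 to 11.64 in ATF6aKO, 9.80 to 10.66 in ATF6bKO and 9.06 to 9.32 in WT. Between the knockouts their median difference was 1.35 with none called, while that of the 39 cell cycle genes was 0.01. Of 12 markers of growth plate zones, 2 were higher and 2 lower in each knockout.

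Of 8 endothelial markers, none was higher in either knockout and 5 were lower in ATF6aKO and 4 in ATF6bKO, and their mean level was 7.53 to 7.66, 7.57 to 7.63 and, in WT, 8.28 to 8.80. Of 8 erythroid markers, 1 was higher and 3 were lower in each knockout, and their mean level was 7.40 to 7.68, 7.67 to 7.68 and, in WT, 8.53 to 9.34. Among the globin genes, Hba-a1 and Hba-a2 were well above background on every knockout array, Hbb-bs only on ATF6bKO replicate 2, and Hbb-bt on none. The mean level of 6 osteoblast markers was 9.14 to 9.27 in ATF6aKO and 8.25 to 9.02 in ATF6bKO. It was 12.05 on WT replicate 1 and 8.11 on WT replicate 2. B cell, myeloid and skeletal muscle lists of 9 genes each had medians between -0.34 and 0.07 in both knockouts, and their mean levels lay between 7.41 and 8.10 on all arrays. In each list genes were called both higher and lower, 33.3% to 44.4% of the 9 in either knockout. The share of all genes called was 42.7% in ATF6aKO and 37.6% in ATF6bKO. Single genes of these lists differed from WT by -1.32 to 3.09. The part of these cells in the differences of the cell cycle genes was not tested.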

How the data were processed

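The study's 6 growth plate arrays were analysed. Per the labels, RNA was taken by laser microdissection. Per the labels' protocols, it was amplified as cDNA, labelled with Cy5 and hybridised to Agilent arrays. Spot intensity values come from the deposited scanner files, whose software the submitters' processing notes name as Agilent Feature Extraction 10.7.1.1. A 2-channel protocol set to Cy5 was used for knockout arrays and a 1-channel protocol for WT arrays, per the file headers. The authors' deposited value table holds log2 values and served as an alternative.

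Median spot and background intensities were corrected with normexp (offset 50, limma 3.58.1 in R 4.3.3), taken to log2 and quantile normalised, leaving out control and outlier spots. Of 55681 probes, 26582 matched 20145 symbols by RefSeq accession. Probes well above background on both arrays of a genotype were kept. The brightest by mean over the 6 arrays stood for its gene, leaving 19122 genes. The 3 comparisons were fitted together with lmFit and eBayes, with Benjamini-Hochberg adjustment over all genes. The procedure was tested on simulated data. Array number and signal over background limit the precision.

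The members, lists and alternatives were chosen with earlier results of these data known. Values on every array are given for the genes of smallest p in each role and, between the knockouts, for the 4 of smallest p. In each other pathway list the 2 called genes of smallest p each way are named. Printed promoters follow the same order, except Mcm6 and Ccnb2. Mcm3, Ccna2, Top2a, Col2a1 and the third Birc5 probe are given in full beyond this rule.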

Additional observations from a re-analysis of the deposited data

How the results depend on the processing

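The 10 settings other than leaving out an array were scaling to the 75th percentile, the processed signal, no background correction, the mean of all kept probes, no filter on dim probes, a filter on all 6 arrays, another variance model, only the 4 arrays compared, a replicate block and the authors' deposited table. Apart from that table, they called 18 to 20 of the 39 genes in ATF6aKO and 17 to 20 in ATF6bKO against WT. Of all genes they called 36% to 46.1% in ATF6aKO and 34.7% to 41.3% in ATF6bKO. No setting, with an array left out or not, put another probe alone in place of the brightest of these genes. The counts given here therefore do not cover the choice of probe. Of the 20 called genes, 13 in ATF6aKO and 12 in ATF6bKO were called in every setting but that table, leave-one-out included. Leaving out 1 array gave 15 to 18 and 13 to 19 called genes, and 32 to 50 and 19 to 50 other pathway genes, with the lone array assumed to vary like the others.

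Replicate numbers did not pair the arrays: same-numbered differences correlated across genes at -0.156, -0.074 and 0.197 between genotypes. With the replicate block, 18 of the 39 genes were called in each knockout against WT and 0 between the knockouts. Of all genes, 39.7% were then called in ATF6aKO and 34.7% in ATF6bKO.

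The median difference of the replication genes moved to 0.60 in ATF6aKO and 0.37 in ATF6bKO with the processed signal, to 0.41 in ATF6bKO with the 75th percentile, and to 0.19 in ATF6bKO without the filter on dim probes. That of the mitotic genes moved to 0.14 in ATF6aKO and 0.23 in ATF6bKO with the 75th percentile, to 0.07 with the mean of probes and 0.15 with the filter on all arrays in ATF6aKO, and to 0.00 with the processed signal in ATF6bKO. Between the knockouts the medians moved to -0.09 (replication) and -0.08 (mitotic) with the 75th percentile, and to 0.08 (replication) with the processed signal. Leaving out 1 array gave medians for replication of 0.39 to 0.53 in ATF6aKO, 0.17 to 0.35 in ATF6bKO and -0.01 to 0.08 between the knockouts, and for mitosis of -0.09 to 0.05, 0.02 to 0.10 and -0.05 to 0.02.

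In the authors' deposited table, the knockout columns followed the green channel (r of 0.9998 to 0.9999), where 54.2% to 59.1% of spots had a processed signal of 1 or less, against 0% on WT. It called 28 of the 39 genes in each knockout, where 50.8% and 51.7% of all genes were called. It called 86 and 89 other pathway genes. Its medians were 5.20 in both knockouts for replication and 3.47 and 3.60 for mitosis, against 0.85 in both over all genes. It gave a median of -0.22 for mitosis between the knockouts. It turned the sign in ATF6aKO of Mcm5 (4.40), Gins1 (5.20), Gins2 (1.0), Cdt1 (5.50), Tyms (-0.87), Ccna2 (5.15), Ccnb1 (-1.40), Ccnb2 (3.55), Plk1 (2.05), Top2a (3.60), Kif20a (3.45), Tpx2 (3.50), Slbp (-0.67), Lig1 (0.55), Pold2 (0.20) and Fzr1 (1.25). In ATF6bKO it turned those of Mcm5 (4.35), Gins1 (5.20), Gins2 (0.40), Cdt1 (5.80), Rrm1 (6.60), Tyms (-0.27), Ccna2 (5.35), Ccnb1 (-1.0), Ccnb2 (3.95), Foxm1 (0.15), Top2a (4.05), Kif20a (3.60), Ttk (2.40), Tpx2 (3.75), Slbp (-0.44), Pold2 (2.10), Rfc5 (1.55), Cenpa (3.14) and Fbxw7 (-0.35). The cause was not tested. Ccnd1 in ATF6aKO also turned, at 0.77 without WT replicate 1 and -0.78 without WT replicate 2, and in ATF6bKO it was 0.20 without WT replicate 1. Differences not called in either fit, such as Cdk1 in ATF6aKO at 0.04 with the mean of probes, could change sign near 0. The count of gaps without dim probes was chosen after seeing the data. Signal over background limits Ccna2, Top2a and Ttk, which were not well above background in ATF6bKO.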
